A study of Mus musculus with 24 samples.

Results

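miR-210 is a microRNA (miRNA) widely used as a readout of low oxygen in tissues, and its level was followed here through 4 stages of mammary tumor development in mice. It was chosen by its name, mir-210 in the count table, as 1 of the 510 miRNAs listed there. The 24 small RNA libraries came from mammary tumors of 3 MMTV-PyMT mice and from normal mammary glands of 3 age-matched females at each of 4 ages. All mice had the FVB strain background. The tumor mice were females heterozygous for a transgene of the polyoma middle T (PyMT) oncogene. The mouse mammary tumor virus (MMTV) promoter drives this oncogene mainly in mammary epithelium, and the control mice carried no transgene. At week 6 the tumor tissue was hyperplasia, at week 8 adenoma with intraepithelial neoplasia, at week 10 early carcinoma, and at week 12 late carcinoma with lung metastasis; all 4 are called tumors here. Each library was made from 1 mouse, so the 3 libraries of a group are separate animals. Per the study's methods, the samples of the 2 earlier stages still held normal gland cells. By histology, the same methods describe the carcinoma samples as mostly tumor cells, with few stromal, muscle or inflammatory cells.

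A miRNA is cut from a hairpin RNA and guides the silencing complex to messenger RNAs that pair with its seed, bases 2 to 8 of the mature strand. Transcription of the miR-210 gene is raised by hypoxia-inducible factors (HIFs), which are degraded when oxygen is plentiful, and miR-210 is known to lower iron-sulfur cluster assembly factors and other mitochondrial proteins. In breast cancer it has been studied as a marker of hypoxic tumor tissue.

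The sequences below are those of RefSeq on the mouse assembly GRCm38.p6 and are shown because the counts are given per hairpin name, so that reads of both arms may be included. The mature strands lie on the minus strand at chr7:141221407-141221428 (3p arm) and chr7:141221445-141221466 (5p arm), and capitals mark the seed.
mmu-miR-210-3p: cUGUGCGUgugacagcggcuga
mmu-miR-210-5p: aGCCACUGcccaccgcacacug
The hairpin of 110 bases at chr7:141221384-141221493 is printed with the 3p arm, the main product known for this gene, in capitals.
Mir210 hairpin: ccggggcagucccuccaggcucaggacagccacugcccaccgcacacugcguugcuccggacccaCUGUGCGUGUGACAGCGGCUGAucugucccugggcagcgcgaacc
Neither seed occurred in any of the other mature names of the mouse set (0 of 1679 names examined), so the counts of miR-210 could not be grouped with those of a seed family. On mm9, the build named by the library labels, the hairpin lies on chromosome 7 from 148407283 to 148407392, minus strand, with the same sequence. Of the 3053 genes of any type that GENCODE lists on this chromosome, 0 others overlap it on either strand. The nearest protein-coding genes are Rassf7, which ends 2726 bases away at lower coordinates, and Phrf1, which starts 7291 bases away at higher coordinates. The nearest other annotated miRNA is 770692 bases away.

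The libraries held 1626022 to 3931375 counts in normal glands and 1032241 to 2213972 in tumors, and miR-210 was counted 393 to 1923 times in normal and 408 to 1487 times in tumor libraries. Levels are given as CPM, the count scaled to a common library size, after TMM, the normalization of edgeR. At these depths the 95% counting interval (exact Poisson) of the miR-210 level reached at most 10.4% of the value to either side, and it covers counting error only, since amplified reads are not independent molecules. A count of 3, used as detection floor, equals 0.763 to 2.91 CPM before TMM. All 53 miRNAs that could be matched by name to the X chromosome on mm9 were listed at 0 in every library, against 20.1% of the 349 matched to other chromosomes, so an X-linked miRNA at 0 says nothing here about its expression. 1 normal library stood apart in miR-210: replicate 2 of week 12 had 778 CPM, while the other 11 normal libraries had 216 to 313 CPM. Most results that rest on it are given with and without it.

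At week 6 the normal glands had 231, 216 and 266 CPM of miR-210 in replicates 1, 2 and 3, and the hyperplastic glands had 525, 538 and 489 CPM. All 3 tumor libraries were above all 3 normal libraries. At week 8 the normal glands had 234, 267 and 226 CPM, and the adenomas had 524, 480 and 490 CPM, again with no overlap. At week 10 the normal glands had 278, 219 and 313 CPM, and the early carcinomas had 421, 503 and 571 CPM. The groups were still separate at week 10, with the lowest tumor library above the highest normal library. At week 12 the normal glands had 222, 778 and 275 CPM, and the late carcinomas had 583, 503 and 1073 CPM. Here the groups overlapped, because normal replicate 2 lay above tumor replicates 1 and 2. The same library lay above 11 of all 12 tumor libraries, and only tumor replicate 3 of week 12 was higher.

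**Figure D1:**
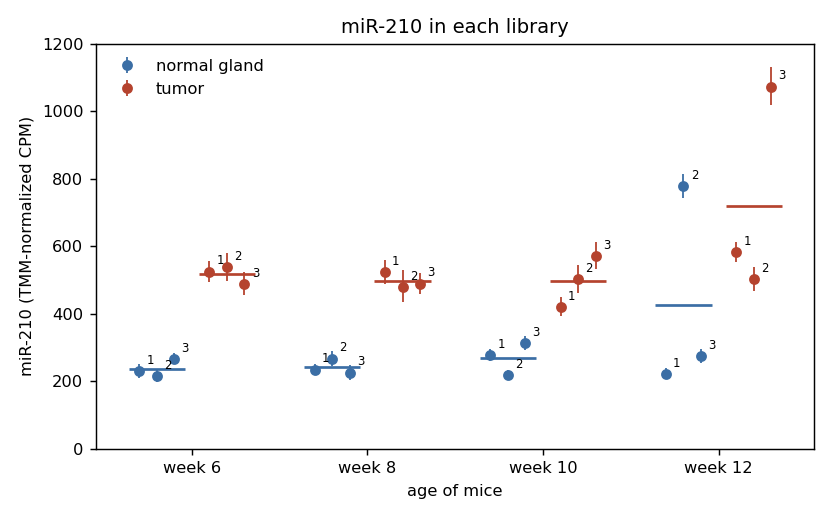
miR-210 level (TMM-normalized CPM, linear axis) in each of the 24 libraries by age of the mice in weeks, normal glands in blue and tumors in red. Points are libraries with their replicate number, error bars are 95% Poisson counting intervals, and horizontal lines are group means; the 12 tumor libraries lie between 421 and 1073 CPM, and 11 of the 12 normal libraries between 216 and 313 CPM.

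In order of the group mean, the 8 groups were normal glands of week 6 with 238 ± 25.8 CPM (SD, n = 3), normal glands of week 8 with 242 ± 21.9 CPM, of week 10 with 269.9 ± 47.7 CPM and of week 12 with 425 ± 307 CPM. Tumors followed, at week 8 with 498 ± 23.4 CPM, at week 10 with 498 ± 75.2 CPM, at week 6 with 517 ± 25.5 CPM and at week 12 with 719.9 ± 309 CPM. Each group's libraries overlapped in level with those of the next group in this order, so no neighbours in the order were separated by more than their spread. The overlap of normal glands and tumors in this order came from normal replicate 2 of week 12 alone. Without it the normal glands of week 12 had 222 and 275 CPM with a mean of 249 CPM, which places them between the normal glands of weeks 8 and 10, and all 11 normal libraries lay below all 12 tumor libraries. The whole range was 216 to 778 CPM in normal glands with a median of 250.3 CPM, and 421 to 1073 CPM in tumors with a median of 514 CPM.

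The spread between mice was larger at week 12 than at the earlier ages, through 1 high library in each tissue. The SD of log2 CPM in tumors was 0.07 at weeks 6 and 8, 0.22 at week 10 and 0.58 at week 12. In normal glands it was 0.15, 0.13 and 0.26 at weeks 6, 8 and 10, and 0.97 at week 12. Without the highest library, the SD at week 12 was 0.22 in the 2 remaining normal glands and 0.15 in the 2 remaining tumors. Leaving out the farthest of 3 libraries lowers an SD by construction, and this was not done at the earlier weeks. With all libraries at week 12, 22 of the 237 tested miRNAs varied more than miR-210 between the tumors and 19 varied more between the normal glands, where the median SD over miRNAs was 0.26 and 0.38.

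For every week separately, the quasi-likelihood test of edgeR set tumors against normal glands over 237 miRNAs, with Benjamini-Hochberg adjustment and a threshold of 0.05. At week 6 miR-210 was 2.18-fold higher in tumors (log2 fold change 1.12, SE 0.18, adjusted p = 0.00296). At that week 58.6% of the tested miRNAs passed the threshold, 29.1% with a higher level in tumors, and 34.2% had all 3 tumor libraries above all 3 normal libraries. At week 8 it was 2.01-fold higher (log2 fold change 1.01, SE 0.23, adjusted p = 0.0125), where 35.4% of miRNAs passed, 21.9% as higher, and 32.1% were separated in this direction. With the replicate number as a block, 55.3% of miRNAs were called at week 8, and miR-210 had an unchanged log2 fold change of 1.01 (adjusted p = 0.00554). The week 8 call did not hold without tumor replicate 1 (log2 fold change 0.96, adjusted p = 0.0691). At week 10 it was 1.84-fold higher (log2 fold change 0.88, SE 0.19, adjusted p = 0.00698), where 60.3% passed, 32.9% as higher, and 36.3% were separated. The rise of miR-210 was therefore 1 of many: 48, 55 and 63 of the 237 miRNAs had a higher log2 fold change at weeks 6, 8 and 10. Since the median log2 fold change of all tested miRNAs was -0.12, -0.09 and -0.15 in these weeks, miR-210 lay 1.24, 1.10 and 1.02 log2 units above it.

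At week 12 the difference of miR-210 did not pass the threshold, although 50.6% of miRNAs passed, 29.1% as higher, and 33.3% were separated with tumors above. The log2 fold change was 0.79 (SE 0.50, 95% interval -0.38 to 1.95, adjusted p = 0.229 in edgeR's test), and 71 of 237 miRNAs had a higher value. Without normal replicate 2 the log2 fold change was 1.48 with an adjusted p of 0.0197 in the same test. The value also moved with other libraries and was 0.37 without tumor replicate 3 (adjusted p = 0.623) and 0.48 without normal replicate 1 (adjusted p = 0.457), so the size of the week 12 difference is poorly fixed by these 6 libraries.

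**Figure D2:**
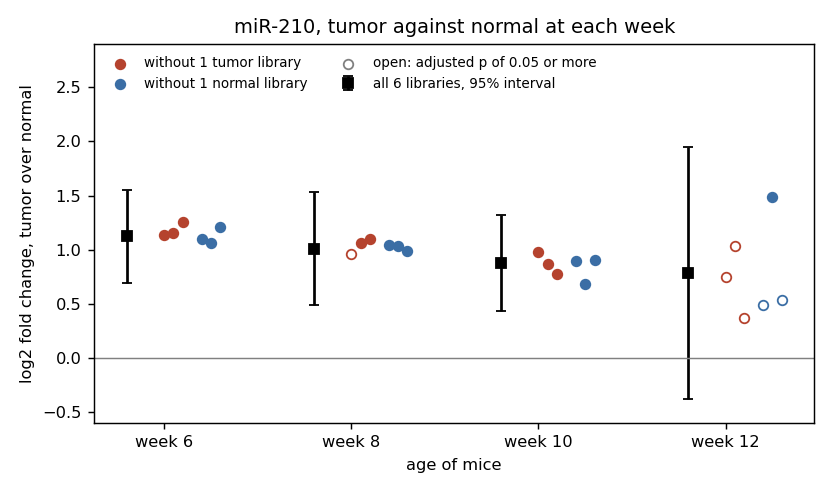
Log2 fold change of miR-210, tumor against normal gland, at each week (edgeR quasi-likelihood fit). Black squares with 95% intervals use all 6 libraries of a week, red and blue points leave out 1 tumor or 1 normal library, and open points have an adjusted p of 0.05 or more; all points are above 0, while the 95% interval of week 12 includes 0, and the points of week 12 run from 0.37 to 1.48.

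Over the 4 weeks, in a fit of all 24 libraries with 1 coefficient per group, the mean tumor-normal difference of miR-210 was 0.95 on the log2 scale (SE 0.17, 95% interval 0.59 to 1.31, adjusted p = 5.29e-05, edgeR's quasi-likelihood test). Here 85.7% of all tested miRNAs passed the threshold, 38.8% as higher in tumors. Without normal replicate 2 of week 12 the mean difference was 1.09 (SE 0.12, adjusted p = 1.30e-07 in the same test). That library was left out because its miR-210 was seen to be high. Such a choice raises the difference and here lowered the SE, so the smaller p adds no support. An exact permutation test that exchanged labels within weeks gave a mean log2 difference of 0.99 and a two-sided p of 6.25e-05 over 160000 arrangements. Without the week 12 library the exact permutation test gave 1.13 and p = 1.25e-05, the smallest value that its 80000 arrangements allow. Tumors and normal glands were then fully separated at every week. This p therefore followed from leaving out that library and adds no support.

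The tumor-normal difference was not shown to depend on the week. The test of any variation of the difference between weeks gave an adjusted p of 0.971 for miR-210 in edgeR, and 0.810 without normal replicate 2 of week 12. This test called 0% of the 237 miRNAs (0 by edgeR, with 9 at an unadjusted p under 0.05, and 0 by the likelihood ratio test of DESeq2). From week 6 to week 12 the difference of miR-210 changed by -0.36 log2 units (SE 0.48, 95% interval -1.37 to 0.65, adjusted p = 0.630), in a comparison that called 0.422% of miRNAs. Without the week 12 library this change was 0.25 (adjusted p = 0.618), so its sign depended on that library.

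Within tumors, miR-210 differed between week 12 and week 6 by 0.48 log2 units (SE 0.34, 95% interval -0.24 to 1.19, adjusted p = 0.381, edgeR), where 7.59% of miRNAs were called. Normal replicate 2 of week 12 entered this test through the scaling and the spread shared by all libraries. Without it the value was 0.55 (SE 0.23, adjusted p = 0.121, edgeR), where 30 of 237 miRNAs were called. Tumor replicate 3 of week 12, with 1073 CPM, was 1.98-fold above the mean of the other tumors of that week on the log2 scale, which had 583 and 503 CPM. Without tumor replicate 3 at every week the difference between week 12 and week 6 was 0.096 (adjusted p = 0.961). Within normal glands the difference between week 12 and week 6 was 0.84 (SE 0.34, 95% interval 0.12 to 1.56, adjusted p = 0.0871), where 21.1% were called, 5.49% as higher at week 12. Without normal replicate 2 of week 12 this value was 0.30 (adjusted p = 0.354), and without normal replicate 1 at every week it was 1.22 and passed the threshold (adjusted p = 0.0442). The joint edgeR test of miR-210 passed the threshold neither over the 4 tumor stages (adjusted p = 0.730) nor over the 4 ages of normal gland (adjusted p = 0.252). These tests called 0% and 13.9% of miRNAs. For tumors 39 miRNAs had an unadjusted p under 0.05, and DESeq2 called 17. Without normal replicate 2 of week 12 the joint edgeR tests of miR-210 gave an adjusted p of 0.219 in tumors and 0.654 in normal glands.

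The normal library with high miR-210 differed from its group in other miRNAs as well. Its miR-210 was 3.14-fold above the mean of the other week 12 normal glands on the log2 scale, and 6 of 237 miRNAs deviated further upwards. These 6, named after their values were seen, include miR-203 and miR-205, both known from squamous epithelium. miR-203 had 8474 CPM against 1556 to 1732, and miR-205 had 7288 CPM against 1124 to 1644, in the other 2 libraries. Over all 11 other normal glands miR-203 had 875 to 2278 CPM and miR-205 had 1124 to 6298 CPM, so for miR-205 the distance to the next normal library was small. The 6 also include miR-196a with 599.7 CPM against 2.46 to 2.92 and miR-196b with 559.6 CPM against 3.70 to 30.5, both encoded in Hox gene clusters. The remaining pair, miR-665 and miR-1965, had only 19 counts against 3 to 6 and 12 counts against 2 to 3. High miR-196a did not go with high miR-210 elsewhere: 5 other normal libraries with 440 to 663 CPM of miR-196a had 219 to 278 CPM of miR-210. In its whole profile the library was nearer to the normal than to the tumor groups, as a description in which miRNAs are not replicates. Its correlation over miRNAs with the means of the normal groups of weeks 6, 8 and 10 was 0.979, 0.984 and 0.989. With the mean of the other 2 normal glands of week 12, its own group, it was lower, at 0.971. With the means of the tumor groups it was 0.926 to 0.944. The same values were not computed for other libraries. The deviations from the week 12 group rest on only 2 other libraries, which were unlike each other in some miRNAs. Their skeletal muscle miRNAs summed to 707 and 89345 CPM, against 2465 CPM in the library with high miR-210. How far the deviations lie in those 2 libraries was not tested.

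Because the libraries were made from whole tissue, a changed level of miR-210 per cell and a changed share of the cells that hold it cannot be told apart. Markers of cell types moved with the comparison. The summed level of 6 epithelial miRNAs (miR-141, miR-200a, miR-200b, miR-200c, miR-429 and miR-205), all of them detected, was 18727 to 29295 CPM in tumors and 4134 to 11674 CPM in normal glands. The highest normal value, 11674 CPM, was that of replicate 2 of week 12, where the other 2 normal glands had 4134 to 4556 CPM. Of these 11674 CPM, 7288 were miR-205, while the 5 members of the miR-200 family summed to 4386 CPM, within the 2719 to 5010 CPM of the other 11 normal glands. In the mean of the 4 weeks, 5 of these 6 rose in tumors, with a median log2 fold change of 2.10 over the list, and all 5 rose by more than miR-210, while 38.8% of all tested miRNAs rose. miR-205, which marks basal cells, had 0.29 (SE 0.29, adjusted p = 0.333).

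Most markers of other cells were lower in tumors, in the mean of the 4 weeks, in which 46.8% of all tested miRNAs fell. miR-126 of endothelium had 6568 to 18254 CPM in tumors and 20498 to 37464 CPM in normal glands. The sum of 4 miRNAs of fibroblasts and smooth muscle (miR-143, miR-145, miR-199a and miR-214) was 68761 to 134552 CPM in tumors and 153384 to 269544 CPM in normal glands, and all 4 fell, with a median of -1.15. The sums for red blood cells (2060 to 13680 against 7798 to 34558 CPM, 3 of 3 lower) and for miRNAs linked to adipocytes (3046 to 15080 against 4662 to 25146 CPM, 2 of 3 lower) overlapped between tissues. Skeletal muscle miRNAs ranged from 39.9 to 18079 CPM in tumors and from 89.0 to 89345 CPM in normal glands, with all 3 tested members lower, while miR-206 did not pass the filter on low counts. Of 4 leukocyte miRNAs (1198 to 1868 against 1681 to 3241 CPM), miR-223 is X-linked and was listed at 0, and of the 3 tested only miR-150 fell. The part of these cell types in the difference of miR-210 was not tested.

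Other miRNAs known to be raised by low oxygen in cultured cells moved in both directions. Of 18 such miRNAs, the X-linked miR-106a was listed at 0 and 17 were tested. At weeks 6, 8, 10 and 12, 5, 4, 6 and 5 of the 17 rose in tumors while 3, 3, 5 and 5 fell. Of all tested miRNAs 29.1%, 21.9%, 32.9% and 29.1% rose in these weeks and 29.5%, 13.5%, 27.4% and 21.5% fell. In the mean of the 4 weeks 6 rose, 8 fell and 3 were not called, and the median log2 fold change was -0.17, near the -0.15 of all tested miRNAs. Of all tested miRNAs, 38.8% rose and 46.8% fell in that mean.

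Among the 6 that rose, miR-23b, a member of the miR-23b/27b/24 cluster, had the highest value with a log2 fold change of 2.07 (SE 0.10), and its levels were 3340 to 8796 CPM in tumors and 923 to 1954 CPM in normal glands. The 3 listed members of the miR-181 family, which share a seed, were each called in all 4 weeks, with 1.10 (SE 0.11) for miR-181c, 0.95 (SE 0.07) for miR-181a and 0.90 (SE 0.12) for miR-181b. miR-93 with 0.50 and miR-192 with 0.36 completed this group. By their estimates, only miR-23b and miR-181c of the 6 rose by more than miR-210 in the mean of the weeks, and miR-181a lay within its SE of the miR-210 value.

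The 8 that fell were led by miR-125b (-1.16, SE 0.13), miR-195 (-1.06, SE 0.13) and miR-103 (-0.95, SE 0.09). The others were miR-107 (-0.55), miR-26a (-0.55), miR-23a (-0.51), miR-27a (-0.49) and miR-26b (-0.37). miR-103 and miR-107 are near-identical in sequence, so that reads could be shared between them. Not called were miR-21, with 0.09 (SE 0.09), miR-24, with 0.08 (SE 0.10), and miR-30b, with -0.17 (SE 0.11).

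A second list held 7 miRNAs known to act on HIF-1alpha or on its degradation. miR-20b and miR-322, both X-linked, were listed at 0. Of the other 5, 3 rose and 1 fell in the mean of the 4 weeks, with a median of 1.27, where 38.8% of all tested miRNAs rose and 46.8% fell. At weeks 6, 8, 10 and 12 the numbers were 3, 1, 3 and 3 up with 1 down each time, beside 29.1%, 21.9%, 32.9% and 29.1% of all miRNAs up. The 3 that rose, miR-18a (1.95, SE 0.28), miR-20a (1.33, SE 0.20) and miR-17 (1.27, SE 0.15), all come from the miR-17/92 cluster and are therefore not independent of each other. miR-199a, which is also in the list of fibroblast miRNAs above, fell (-1.09, SE 0.10). miR-155 had 0.17 (SE 0.19, adjusted p = 0.420 in edgeR's test).

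**Figure D3:**
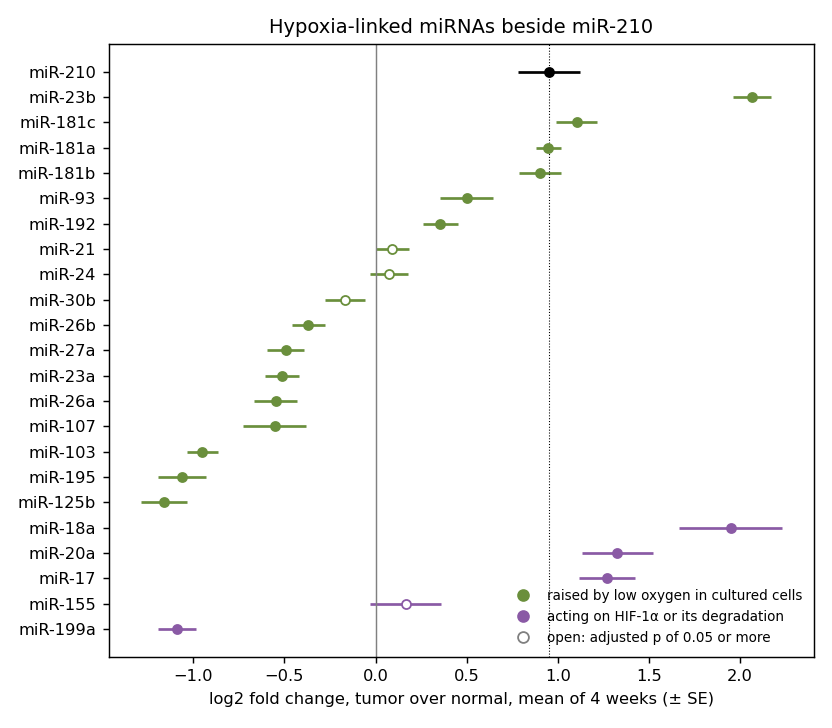
Mean tumor-normal log2 fold change over the 4 weeks with its SE, for miR-210, the 17 tested miRNAs known to be raised by low oxygen in cultured cells and the 5 tested miRNAs known to act on HIF-1alpha. The dotted line marks miR-210 at 0.95; the first list lies on both sides of 0, from -1.16 for miR-125b to 2.07 for miR-23b.

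The miRNAs whose level followed miR-210 most closely were found from Pearson's correlation of log2 CPM over the 24 libraries, as a description in which the points share the tissue difference and their library scaling. The 3 highest of 236 were miR-33 (r = 0.889, Spearman's rho 0.785), miR-141 (r = 0.841, rho 0.779) and miR-669c (r = 0.828, rho 0.809), where the median r of all miRNAs was -0.195. With the 2 libraries farthest from the median of miR-210 left out, r was 0.876, 0.840 and 0.788. miR-33, which lies in an intron of Srebf2 and is known for cholesterol export, had 87.7 to 171 CPM in tumors and 50.5 to 111 CPM in normal glands. Its mean tumor-normal log2 fold change was 1.00 (SE 0.12), and it was called in all 4 weeks. miR-141, of the epithelial miR-200 family, had 274 to 406 CPM in tumors and 74.6 to 144 CPM in normal glands, and a log2 fold change of 1.66. miR-669c had only 6.68 to 16.6 CPM in tumors and 2.85 to 6.47 CPM in normal glands, with a log2 fold change of 1.08. It was counted 6 to 33 times per library and was called in 3 of the 4 weeks, with weekly log2 fold changes of 0.47 to 1.45.

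The correlations were lower within each tissue. Within the 12 tumors r was 0.440 for miR-33, 0.409 for miR-141 and 0.575 for miR-669c. Within the 12 normal glands r was 0.824, 0.653 and 0.581, with replicate 2 of week 12 included. That library lay far above the other normal glands in miR-210, and r within the normal glands was not computed without it. After the mean of each group was subtracted, the 3 highest were miR-669c (r = 0.738), miR-141 (r = 0.669) and miR-1965 (r = 0.665), and miR-33 had 0.629. Without normal replicate 2 of week 12 these values were 0.696, 0.451, 0.335 and 0.415. The values before subtraction instead rose without it, to 0.914 for miR-33, 0.926 for miR-141, 0.883 for miR-669c and 0.808 for miR-1965. miR-1965 was counted only 1 to 28 times per library, so its level is imprecise.

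**Figure D4:**
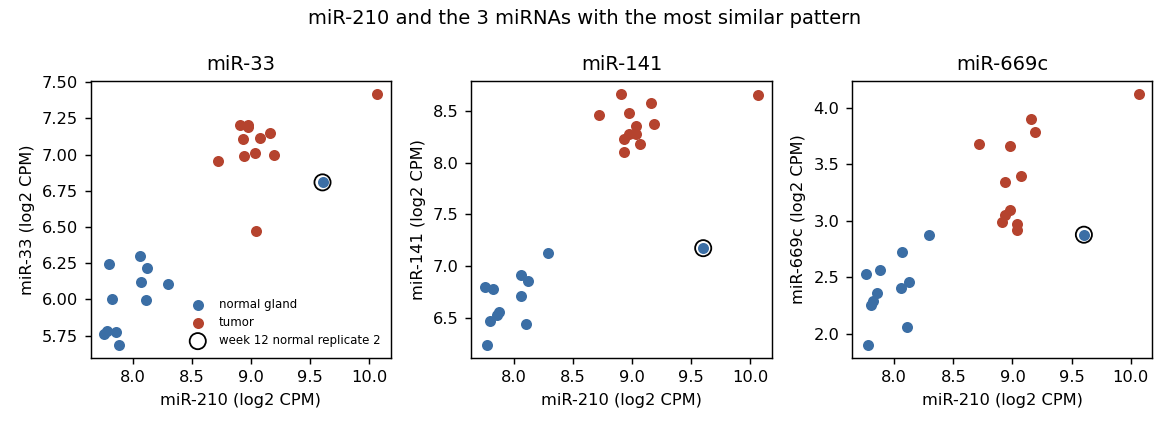
miR-210 level against the levels of miR-33, miR-141 and miR-669c (log2 CPM on both axes), each point 1 of the 24 libraries, tumors in red and normal glands in blue. The circled point is normal replicate 2 of week 12; r over all libraries is 0.889, 0.841 and 0.828.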

How the data were processed

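Small RNA of 12 mammary tumors and 12 normal glands was sequenced in 2 lanes, with libraries of every group on both. The authors removed barcode and adaptor, aligned reads of mature miRNA length with Bowtie (version not given in the sources used here), counted reads covering most of a miRBase miRNA, and deposited raw counts per miRNA name without normalization; arms are not separated. The study's methods name mm10, while the library labels and processing notes name mm9. Groups, ages and replicate numbers came from the labels, and 0 sample columns were left unused.

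Counts were filtered with filterByExpr over the 8 groups (237 of 510 miRNAs kept, 364 with at least 1 count), scaled with TMM and tested with the quasi-likelihood test of edgeR 4.0.16 in R 4.3.3, per week and in a fit of all libraries. The threshold was an adjusted p of 0.05, and log2 CPM used a prior count of 2. SEs are those of the log2 fold change. Same-numbered tumor and normal libraries deviated together from their group means at weeks 6, 8 and 10 (r over miRNAs 0.196 to 0.816 in all 9 pairs), while at week 12 only 1 of 3 pairs had r over 0.1. The labels state no pairing, so this comes from the data alone. By the labels, same-numbered libraries of a week shared a lane and had consecutive library numbers. A pairing of animals therefore cannot be told apart from lane or library order. 17 of 24 libraries correlated best with their own number. The reported values have no block. Alternatives were DESeq2 1.42.0 (test and size factors), library sizes only, other filters, thinned counts, lane, the replicate number and each replicate left out. Leaving out only normal replicate 2 of week 12 was chosen after seeing the data. Named miRNAs are the listed ones and the 3 most correlated with miR-210 over libraries, before and after group means were subtracted. miR-210 (by name) and the lists were chosen with earlier results of these data known. Methods were tested on simulated data. Python 3.11.15, numpy 2.4.6, pandas 2.3.3, scipy 1.17.1 and matplotlib 3.10.9 were used. mRNA data were not analysed here. Positions on mm9 are from GENCODE, and sequences are from RefSeq.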

Additional observations from a re-analysis of the deposited data

How the results depend on the processing

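The higher level of miR-210 in tumors kept its direction at each week under every alternative run, with log2 fold changes between 0.98 and 1.20 for week 6, between 0.88 and 1.04 for week 8, between 0.74 and 0.98 for week 10, and between 0.64 and 0.93 for week 12. Leaving out 1 replicate gave 1.06 to 1.26, 0.96 to 1.10, 0.68 to 0.98 and 0.37 to 1.48. The week 8 call was lost without tumor replicate 1 (0.96, adjusted p = 0.0691), and the week 12 difference passed without normal replicate 2 (1.48, adjusted p = 0.0197). The mean of the 4 weeks ranged from 0.87 to 1.01, and from 0.71 to 1.09 with a replicate left out. The difference between week 12 and week 6 in normal glands passed with DESeq2 (0.86, adjusted p = 0.0459) and ranged from 0.049 to 1.22 with replicates left out, where it passed without normal replicate 1 (1.22, adjusted p = 0.0442). The change of the difference from week 6 to 12 ranged from -0.78 to 0.48, positive without normal replicate 2 at all weeks (0.48) or at week 12 alone (0.25).

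With the replicate number as a block, the weekly values were 1.13, 1.01, 0.88 and 0.93 (adjusted p = 0.0804 at week 12), the mean of weeks was 1.00, and no call of miR-210 changed, here or in the other tests run with the block, while the miRNAs called at week 8 rose from 84 to 131. Leaving out 1 replicate gave between 78 and 150 called miRNAs for week 6, between 50 and 81 for week 8, and between 74 and 120 for week 12. With library sizes only, the median of all miRNAs moved from -0.12 to -0.26 for week 6, from -0.09 to -0.22 for week 8 and from -0.19 to -0.0059 for week 12, and miR-210 lay 1.24, 1.10 and 0.79 above it. The causes of these shifts were not tested.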

Other observations

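Tumor replicate 3 of week 12, the library with the highest miR-210 of all 24 (1073 CPM), also had 3218 CPM of miR-9 against 106 to 259 CPM in the other late carcinomas. miR-9 was among 6 of 237 miRNAs that deviated further upwards than miR-210 in that library, and 14 miRNAs (5.91%) differed there by more than 1 log2 unit from the mean of the other 2. In the normal library with high miR-210, 35 miRNAs (14.8%) did so. Such a difference can also come from the other 2 libraries of the group, which was not tested.

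Tumors had more miR-210 than normal glands in 11 of the 12 same-numbered pairs of a week, though the labels state no pairing. The share of all miRNAs with such a count was not computed. At weeks 6, 8, 10 and 12, 34.2%, 32.1%, 36.3% and 33.3% of tested miRNAs had all 3 tumor libraries above all 3 normal libraries.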
